A study of Mus musculus with 6 samples.

Results

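Messenger RNA of 34 genes that carry glucose through glycolysis, lactate formation and the pentose phosphate pathway was compared between mouse macrophages with and without interleukin-4 (IL-4). The genes were listed by symbol, from the glucose transporters to the enzymes that rearrange sugar phosphates, and all 34 were found among the 25124 genes of the deposited table. The cells were bone marrow-derived macrophages (BMDM) of wild-type C57BL/6 mice 8 weeks of age, cultured for 7 days with 20 ng/ml macrophage colony-stimulating factor (M-CSF). The 3 M0 libraries came from cells given 20 ng/ml M-CSF alone, and the 3 M2 libraries from cells given 10 ng/ml IL-4 on top of 20 ng/ml M-CSF, both taken at 4 h. Messenger RNA was selected by its poly(A) tail from 100 ng of total RNA. The labels do not say that replicates came from separate mice or cultures, so the p-values measure only the spread between these libraries, which may be technical.

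Glycolysis splits a glucose molecule into pyruvate and yields ATP and NADH, and lactate dehydrogenase returns the NADH to NAD+ by turning pyruvate into lactate. The pentose phosphate pathway branches off at glucose 6-phosphate. Its oxidative arm makes NADPH, used in macrophages for the respiratory burst and for glutathione, and its non-oxidative arm exchanges carbon between ribose phosphates and glycolysis. Several steps are served by isozymes, products of different genes that catalyse the same reaction. The factor HIF1 and the factor MYC are both known to raise transcription of many glycolytic genes, and inflammatory macrophages are known for high glycolysis.

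After 4 h of IL-4, 21 of the 34 genes had fallen and 6 had risen, while 7 did not pass the test (limma-trend, Benjamini-Hochberg adjusted p under 0.05 over all 11235 genes tested). The share that fell was 61.8%, where 45.3% of all tested genes were lower in M2 by the same rule. The share that rose was 17.6%, where 17.7% of all tested genes were higher. The median log2 fold change, M2 minus M0, was -0.32 over the 34 genes and -0.15 over all tested genes. Fold changes of this test are on the log2 scale of TPM (an abundance corrected for transcript length and library depth) plus 1, which understates the change of genes near or below 1 TPM. The deposited TPM summed to only 542749 to 553186 per library over the genes of the table, for reasons not given in the sources used here, so levels and sums are on that scale and not shares of a full total.

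The shift of all genes bears on these counts. Dividing each library by a median-ratio factor moved the median of all genes by 0.15, to -0.00. After that scaling 18 of the 34 genes fell, where 28.7% of all genes were lower, and 9 rose, where 28.6% were higher. Of the calls, 18 falls and 6 rises were made in both fits. By level alone, every M2 library was below every M0 library for 22 genes (64.7%, where 49.8% of all tested genes were). Every M2 library was above for 7 (20.6%, where 19.6% of all tested genes were), and for 5 the groups overlapped. Most of the changes were small: 6 genes fell by more than 1.5-fold, 3 of them by more than 2-fold, and 2 rose by more than 1.5-fold. Shares of all tested genes past these fold limits were not computed, so the counts describe the 34 genes alone. Slc2a3 passed the filter on low values (at least 1 TPM in 3 libraries) only through M0, so it had to be lower in M2. It is counted among the 22 genes without overlap. Among the other 33 genes 20 fell, 5 of them by more than 1.5-fold and 2 by more than 2-fold. In these bulk samples fewer cells expressing a gene and less RNA per cell cannot be told apart.

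**Figure D1:**
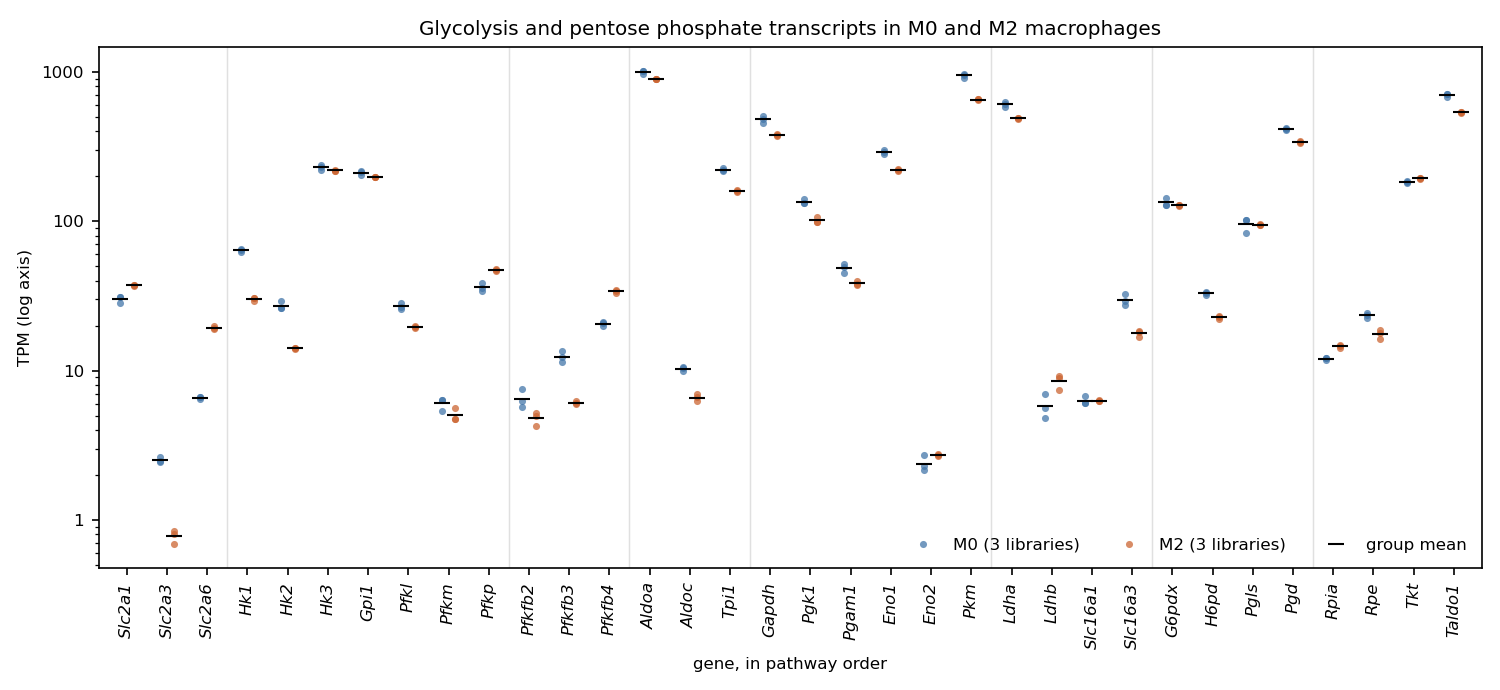
TPM of the 34 genes in pathway order on a log axis, with a point for each of the 3 M0 and 3 M2 libraries and a bar for each group mean. The points span from 0.692 TPM (Slc2a3 in M2) to 1021 TPM (Aldoa in M0), and the largest gaps between groups are at Slc2a3, Slc2a6, Hk1, Hk2 and Pfkfb3.

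The libraries held 16913185 to 19019896 reads in genes, recovered from the TPM steps, and the least-read member, Slc2a3, had 40 reads in its lowest library. M0 replicate 2 stood apart from the other M0 libraries: its read counts differed from theirs by a chi-square of 9.05 and 10.2 per degree of freedom, where the other M0 pair gave 2.25 and the M2 pairs 1.52 to 1.70. Without it, 23 of the 34 genes fell, where 46.6% of all tested genes were lower, and 7 rose, where 19.7% were higher. All 9 macrophage markers listed, Csf1r and Adgre1 among them, reached 1 TPM, with sums of 16812 to 17917 TPM in M0 and 15579 to 15954 TPM in M2. The 9 neutrophil markers summed to 48.8 to 59.1 TPM in M0 and 48.7 to 56.1 TPM in M2, and 6 of them reached 1 TPM. The 5 fibroblast markers summed to 8.53 to 9.21 TPM in M0 and 6.51 to 7.02 TPM in M2, with Col1a1 and Col1a2 above 1 TPM. Among 4 endothelial markers only Kdr reached 1 TPM, with sums of 3.21 to 3.76 TPM in M0 and 0.310 to 0.341 TPM in M2, and Tek and Cldn5 were at 0 in all libraries. The 4 dendritic cell markers summed to 0.334 to 0.470 TPM in M0 and 1.19 to 1.37 TPM in M2, the 5 B cell markers to 1.85 to 1.98 and 1.10 to 1.58 TPM, with Cd79b above 1 TPM, and the 5 mast cell and basophil markers to 0.326 to 0.356 and 0.111 to 0.153 TPM, with Mcpt8 at 0. No erythroid, T or NK cell marker reached 1 TPM in 3 libraries, and 5 of the 7 erythroid ones were at 0 in all libraries. The part of these other cell types in the results was not tested.

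To show what lies upstream of the genes that moved, the 250 bases before the start of 7 of them are given from RefSeq (GRCm38.p6, the mm10 assembly), read 5′ to 3′ on the strand of the gene. Hk2, Pgk1, Ldha and Slc16a3 fell and held the motif ACGTG, and Slc2a1 rose and held it too. ACGTG is a form of the core of the element bound by hypoxia-inducible factors. Hk1 fell and Slc2a6 rose, and neither held any of the motifs searched. The form GCGTG of that core was not searched, and it occurs in the windows of both Hk1 and Slc2a6. The 7 were picked after their values and motifs were seen, to show windows with and without ACGTG for both directions. Hk2 lies at chr6:82774455-82774704 on the minus strand, Pgk1 at chrX:106186850-106187099 on the plus strand and Ldha at chr7:46845554-46845803 on the plus strand. Slc16a3 lies at chr11:120948817-120949066 and Slc2a1 at chr4:119108495-119108744 on the plus strand, and Hk1 lies at chr10:62340422-62340671 and Slc2a6 at chr2:27027999-27028248 on the minus strand. Capitals mark each match, on either strand, to ACGTG, to CACGTG (the E-box read by MYC and by MLX complexes, which contains ACGTG on both strands) or to TTCNNNNGAA (the spacing bound by STAT6, the factor activated by IL-4).
Hk2: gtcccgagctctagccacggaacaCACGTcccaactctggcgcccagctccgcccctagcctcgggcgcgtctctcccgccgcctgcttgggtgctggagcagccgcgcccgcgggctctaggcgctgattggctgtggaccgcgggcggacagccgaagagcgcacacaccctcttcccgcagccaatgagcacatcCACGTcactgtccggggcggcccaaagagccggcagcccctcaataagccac
Pgk1: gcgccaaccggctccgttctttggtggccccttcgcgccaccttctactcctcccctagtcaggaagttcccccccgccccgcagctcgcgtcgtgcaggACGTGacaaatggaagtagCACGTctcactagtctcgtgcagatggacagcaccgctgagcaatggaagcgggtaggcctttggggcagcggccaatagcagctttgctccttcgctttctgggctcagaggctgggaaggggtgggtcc
Ldha: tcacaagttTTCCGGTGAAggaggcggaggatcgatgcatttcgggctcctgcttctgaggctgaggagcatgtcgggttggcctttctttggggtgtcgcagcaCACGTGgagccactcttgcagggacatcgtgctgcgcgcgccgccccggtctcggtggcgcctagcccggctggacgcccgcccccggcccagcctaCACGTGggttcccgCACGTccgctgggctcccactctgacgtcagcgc
Slc16a3: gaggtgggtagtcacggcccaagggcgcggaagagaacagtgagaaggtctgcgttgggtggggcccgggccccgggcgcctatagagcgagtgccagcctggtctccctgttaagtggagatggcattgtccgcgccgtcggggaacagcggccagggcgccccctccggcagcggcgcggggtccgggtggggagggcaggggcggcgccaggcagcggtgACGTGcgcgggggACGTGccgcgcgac
Slc2a1: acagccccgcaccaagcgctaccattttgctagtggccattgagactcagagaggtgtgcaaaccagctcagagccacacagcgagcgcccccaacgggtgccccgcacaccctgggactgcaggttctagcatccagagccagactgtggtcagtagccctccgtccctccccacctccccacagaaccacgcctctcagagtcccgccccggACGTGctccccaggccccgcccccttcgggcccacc
Hk1: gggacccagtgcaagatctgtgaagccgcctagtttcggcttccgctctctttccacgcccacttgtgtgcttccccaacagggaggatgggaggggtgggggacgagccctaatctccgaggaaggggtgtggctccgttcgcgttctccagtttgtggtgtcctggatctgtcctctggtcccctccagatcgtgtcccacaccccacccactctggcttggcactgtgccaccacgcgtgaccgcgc
Slc2a6: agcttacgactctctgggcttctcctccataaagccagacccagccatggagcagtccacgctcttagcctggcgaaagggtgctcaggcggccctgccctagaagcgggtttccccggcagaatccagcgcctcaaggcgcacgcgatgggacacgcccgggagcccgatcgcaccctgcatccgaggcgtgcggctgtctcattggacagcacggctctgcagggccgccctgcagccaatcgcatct

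A window at the start of the deposited transcript was found for 29 of the 34 genes. It was not found for Slc2a3, Hk3, Tpi1, Pkm and H6pd. ACGTG was present in 10 of the 29 windows (34.5%), against 16.6% of the 32851 windows of the RefSeq table. Those 32851 windows were not limited to tested genes or to 1 per gene, and their GC content was not matched to the 29. The 10 were Slc2a1, Hk2, Pfkfb2, Pfkfb3, Aldoa, Pgk1, Pgam1, Ldha, Slc16a1 and Slc16a3. Among members with a window, 8 of the 17 that fell and 1 of the 6 that rose, Slc2a1, held ACGTG. The 8 include Aldoa and Pfkfb2, whose falls did not pass after median scaling. CACGTG was present in Ldha and Slc16a1 (6.02% of all windows), and TTCNNNNGAA in Gpi1, Ldha and Pgd (5.85% of all windows). A match is a description of these letters and not a binding site.

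The 3 glucose transporter genes moved in opposite directions. Slc2a6 encodes GLUT6, a transporter found on lysosomal membranes in macrophages. Its TPM was 6.63, 6.67 and 6.46 in M0 and 19.2, 19.95 and 19.005 in M2, so that the groups were far apart. This was a 2.94-fold rise (log2 fold change 1.43, SE 0.06, adjusted p = 1.6e-08, limma-trend), the largest among the 34 genes, at chr2:27021367-27027998 on the minus strand (9 exons). Slc2a1 encodes GLUT1, the main glucose transporter of the plasma membrane in macrophages. Its TPM was 31.3, 28.4 and 31.3 in M0 and 36.9, 37.3 and 37.7 in M2, with no overlap, which gave a rise of 0.29 on the log2 scale (SE 0.05, adjusted p = 8.6e-04, limma-trend). Slc2a3 encodes the high-affinity transporter GLUT3. Its level went from 2.65, 2.48 and 2.46 TPM in M0 to 0.692, 0.844 and 0.804 TPM in M2, 3.24-fold lower, with no overlap, and since the filter fixed that direction no test is given.

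The sum of the 3 transporters was 39.5 ± 1.63 TPM in M0 and 57.5 ± 0.627 TPM in M2 (mean ± SD, n = 3 each; exact permutation p = 0.1, two-sided, the smallest that 3 against 3 libraries allow). Within it the share of Slc2a1 went from 76.9% to 64.9%, that of Slc2a6 from 16.7% to 33.7% and that of Slc2a3 from 6.42% to 1.36%. Slc2a1 was the most abundant of the 3 in every library.

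Hexokinases trap glucose in the cell as glucose 6-phosphate. Of 3 hexokinase genes, 2 fell, where 45.3% of all tested genes were lower by the same rule. Hk1, the isozyme known to bind mitochondria in most tissues, had 65.0, 64.7 and 62.2 TPM in M0 and 30.6, 30.5 and 29.1 TPM in M2. With no overlap between groups, it was 2.13-fold lower in M2 (chr10:62268855-62340421, minus strand, 18 exons; SE of the log2 fold change 0.05, adjusted p = 2.4e-08, limma-trend). Hk2, the inducible isozyme that also binds mitochondria, had 26.3, 29.1 and 26.4 TPM in M0 and 14.2, 14.1 and 14.01 TPM in M2, and was 1.93-fold lower (chr6:82725027-82774454, minus strand; adjusted p = 4.2e-07, limma-trend).

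Hk3, an isozyme typical of myeloid cells, was by far the most abundant hexokinase transcript in both groups. It had 232, 222 and 237 TPM in M0 and 219, 221 and 219 TPM in M2. Its log2 fold change of -0.07 did not pass (adjusted p = 0.15, limma-trend), had the opposite sign after median scaling (0.10) and passed without M0 replicate 2 (-0.10, adjusted p = 0.0084). The summed hexokinase TPM, not computed after median scaling, went from 322 ± 5.53 to 264 ± 2.003 (SD, n = 3 each). The share of Hk3 in that sum was 71.8%, 70.3% and 72.8% in M0 and 83.0%, 83.2% and 83.5% in M2, while Hk1 went from 19.9% to 11.4% and Hk2 from 8.48% to 5.35% (exact permutation p = 0.1 for each share). The ratio of Hk3 to Hk1 plus Hk2 was 2.53 ± 0.159 in M0 and 4.97 ± 0.0919 in M2 (SD, n = 3 each).

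Phosphofructokinase catalyses the committed step of glycolysis, and its 3 genes also diverged. Pfkp, the platelet type, rose: its TPM was 33.99, 38.6 and 36.03 in M0 and 46.6, 47.2 and 47.7 in M2 (log2 fold change 0.37, SE 0.05, adjusted p = 1.8e-04, limma-trend). Pfkl, the liver type, fell from 26.996 ± 1.38 to 19.6 ± 0.279 TPM (SD, n = 3 each; log2 fold change -0.44, adjusted p = 6.4e-05, limma-trend). Pfkm, the muscle type, had 6.38, 6.40 and 5.39 TPM in M0 and 5.65, 4.75 and 4.72 TPM in M2, with overlapping groups. The log2 fold change of Pfkm, -0.22, did not pass (adjusted p = 0.055, limma-trend), but did so without M0 replicate 3 (adjusted p = 0.0213) or without M2 replicate 1 (adjusted p = 0.0311). The sum of the 3 genes, not computed after median scaling, was 69.3 ± 1.90 TPM in M0 and 71.8 ± 0.205 TPM in M2 (mean ± SD, n = 3 each). Pfkp made up 52.3% of it in M0 and 65.7% in M2, and Pfkl 39.0% and 27.3% (exact permutation p = 0.1 for both). The share of Pfkm was 8.75% in M0 and 7.02% in M2 (exact permutation p = 0.2).

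The PFKFB enzymes make and remove the small sugar phosphate that activates phosphofructokinase, and they showed the same kind of exchange. Pfkfb3, whose product mostly makes the activator, had 12.4, 13.5 and 11.4 TPM in M0 and 5.97, 6.31 and 6.08 TPM in M2. It fell 2.03-fold with no overlap (log2 fold change -0.91, SE 0.08, adjusted p = 2.7e-06, limma-trend; chr2:11471431-11553929, minus strand). Pfkfb4 had 21.002, 21.04 and 19.8 TPM in M0 and 34.4, 34.6 and 33.3 TPM in M2, and rose 1.65-fold (log2 fold change 0.70, SE 0.05, adjusted p = 1.1e-06, limma-trend; chr9:108991902-109032225, plus strand). Pfkfb2, the heart type, went from 6.48 ± 0.909 to 4.79 ± 0.479 TPM (SD, n = 3 each), a fall that passed on the deposited TPM (log2 fold change -0.37, adjusted p = 0.010, limma-trend) and not after median scaling (-0.22, adjusted p = 0.071). The sum of the 3 genes was 39.5 ± 2.56 TPM in M0 and 45.0 ± 1.24 TPM in M2. Pfkfb4 held 53.0%, 50.1% and 53.7% of it in M0 and 75.5%, 75.5% and 76.3% in M2, and Pfkfb3 went from 31.4% to 13.6% (exact permutation p = 0.1 for both).

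**Figure D2:**
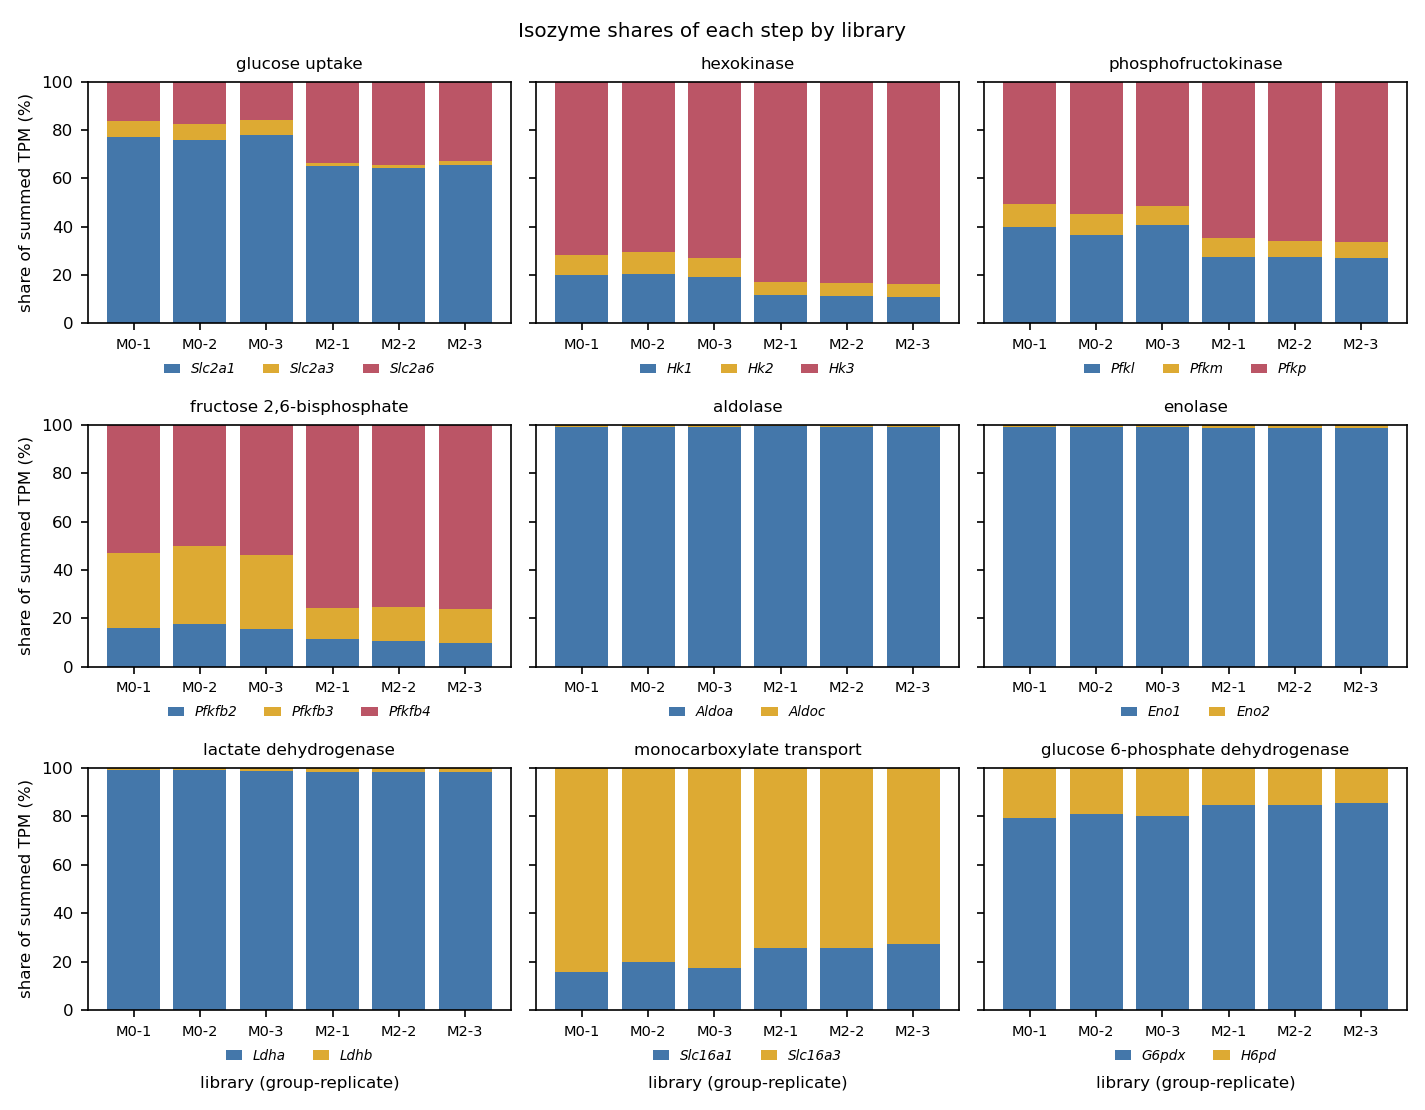
Share of each isozyme in the summed TPM of its step (y axis, percent) in each of the 6 libraries (x axis), for 9 steps with more than 1 gene. Hk3 held 71.6% of hexokinase TPM in M0 and 83.2% in M2 on average, Pfkfb4 52.3% and 75.8%, Pfkp 52.3% and 65.7% and Slc2a6 16.7% and 33.7%, and each of these was higher in all M2 libraries than in any M0 library.

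Gpi1 and Aldoa, on either side of phosphofructokinase, changed little. Gpi1, which turns glucose 6-phosphate into fructose 6-phosphate, had 216, 214 and 205 TPM in M0 and 197, 197 and 197 TPM in M2. Its log2 fold change was -0.10 (adjusted p = 0.036, limma-trend) and was 0.06 (adjusted p = 0.19) after median scaling. The call was also lost without M0 replicate 1 (adjusted p = 0.103) and without any M2 replicate (adjusted p = 0.107 to 0.109). Aldoa, the main aldolase, was the most abundant member in M0 and M2, with 1016, 971 and 1021 TPM against 894, 895 and 899 TPM. The log2 fold change of Aldoa was -0.16 (adjusted p = 0.0018, limma-trend) and was 0.01 (adjusted p = 0.90) after median scaling. Aldoc, a minor aldolase, fell from 10.3 ± 0.316 to 6.60 ± 0.355 TPM (SD, n = 3 each; log2 fold change -0.57, adjusted p = 4.5e-05, limma-trend). Aldoa held 99.0% of aldolase TPM in M0 and 99.3% in M2.

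From triose phosphate to pyruvate the main enzyme of each step fell, with no overlap between groups and a call that also passed after median scaling. By the same rules 45.3% of all tested genes were lower, 28.7% after median scaling, and 49.8% were lower with no overlap. Tpi1, which interconverts the triose phosphates, went from 222 ± 4.56 to 159 ± 2.70 TPM (log2 fold change -0.48, adjusted p = 2.1e-06, limma-trend). Gapdh, which makes the NADH of glycolysis and is often used as a reference gene, had 509, 459 and 485 TPM in M0 and 374, 385 and 377 TPM in M2. It fell by 0.35 on the log2 scale (adjusted p = 5.5e-05, limma-trend), and by 0.18 after median scaling. Pgk1, the first ATP-forming enzyme of the pathway, fell from 136 ± 5.25 to 102 ± 4.67 TPM (SD, n = 3 each), and Pgam1, the mutase after it, from 48.7 ± 3.14 to 38.5 ± 1.11 TPM.

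Eno1, the main enolase, had 301, 284 and 293 TPM in M0 and 216, 223 and 219 TPM in M2, and fell by 0.41 on the log2 scale (SE 0.04, adjusted p = 6.8e-06, limma-trend). Its minor partner Eno2, the neuronal type, had 2.29, 2.15 and 2.71 TPM in M0 and 2.70, 2.72 and 2.76 TPM in M2. The groups of Eno2 overlapped at their edge, and its log2 fold change of 0.14 did not pass (adjusted p = 0.18, limma-trend), while 0.26 after median scaling did (adjusted p = 0.028). Pkm encodes pyruvate kinase, which forms pyruvate and ATP. It had 955, 916 and 973 TPM in M0 and 649, 657 and 657 TPM in M2, the largest fall among the 6 genes from Gapdh to Pkm (log2 fold change -0.53, SE 0.03, adjusted p = 4.4e-07, limma-trend; chr9:59656368-59679375, plus strand). With 1 transcript kept per gene in the deposited table, the spliced forms of Pkm could not be told apart.

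Lactate formation and export showed unequal changes. Ldha, the isozyme that favours lactate formation, had 612, 625 and 585 TPM in M0 and 485, 492 and 489 TPM in M2, and fell by 0.31 on the log2 scale (SE 0.04, adjusted p = 3.8e-05, limma-trend; chr7:46845804-46855627, plus strand). Ldhb, the isozyme that favours pyruvate, was far scarcer, with 5.58, 4.80 and 6.93 TPM in M0 and 8.93, 9.22 and 7.396 TPM in M2. It rose by 0.50 on the log2 scale (SE 0.12, adjusted p = 0.0043, limma-trend), and the groups lay close together without overlap. The ratio of Ldha to Ldhb was 108 ± 22.99 in M0 and 58.0 ± 7.09 in M2 (SD, n = 3 each; exact permutation p = 0.1).

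Slc16a3 encodes MCT4, a lactate exporter of glycolytic cells. It had 32.6, 27.4 and 29.1 TPM in M0 and 18.1, 18.3 and 16.8 TPM in M2, and fell 1.67-fold (log2 fold change -0.71, SE 0.07, adjusted p = 1.2e-05, limma-trend; chr11:120949067-120959000, plus strand). Slc16a1 encodes MCT1, which carries lactate in both directions. It had 6.03, 6.72 and 6.04 TPM in M0 and 6.26, 6.30 and 6.36 TPM in M2, with overlapping groups and a log2 fold change of 0.01 (adjusted p = 0.92, limma-trend). That value turned to -0.01 without M0 replicate 1 or 3. The share of Slc16a1 in the summed TPM of both transporters was 17.5% in M0 and 26.2% in M2 (exact permutation p = 0.1).

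**Figure D3:**
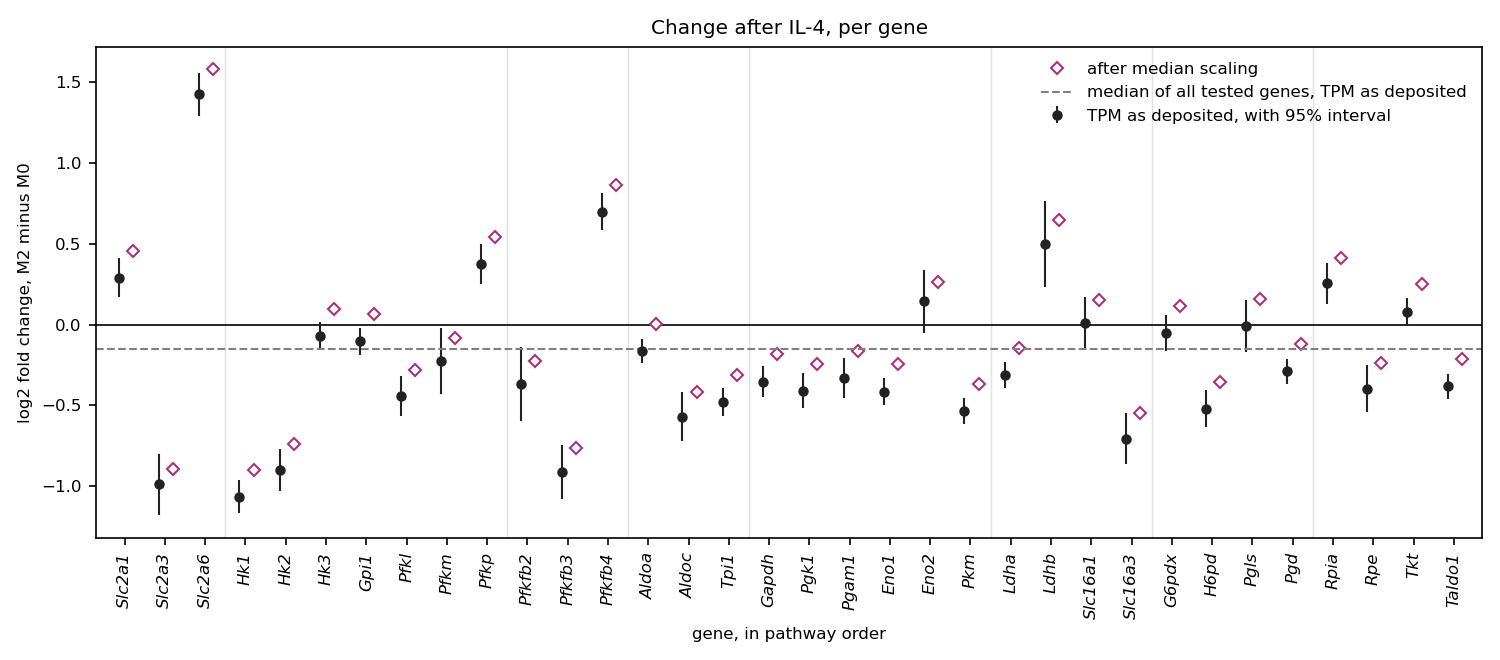
Log2 fold change, M2 minus M0, of the 34 genes in pathway order, from the deposited TPM with its 95% interval (filled points) and after median scaling (open diamonds). The dashed line is the median of all tested genes at -0.15; Slc2a6, Pfkfb4 and Ldhb lie highest, Hk1, Slc2a3, Pfkfb3 and Hk2 lowest, and Hk3, Gpi1, Aldoa, G6pdx and Pgls change sign with the scaling.

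In the oxidative arm of the pentose phosphate pathway the entry enzyme and the last enzyme differed. G6pdx, glucose 6-phosphate dehydrogenase, forms NADPH and sets the rate of the arm. It had 128, 144 and 129 TPM in M0 and 129, 127 and 129 TPM in M2, with overlapping groups. The log2 fold change of G6pdx was -0.05 (adjusted p = 0.37, limma-trend) and, with the opposite sign, 0.11 after median scaling (adjusted p = 0.048). H6pd, which performs the same reaction inside the endoplasmic reticulum, fell from 33.01 ± 0.960 to 22.7 ± 0.462 TPM (SD, n = 3 each; log2 fold change -0.52, SE 0.05, adjusted p = 9.1e-06, limma-trend). The share of G6pdx in the summed TPM of both went from 80.2% to 85.0%.

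Pgls, the lactonase that follows, had 102, 83.5 and 102 TPM in M0 and 95.8, 94.3 and 94.3 TPM in M2, so that M0 replicate 2 lay below and the other M0 libraries above all M2 libraries. Its log2 fold change was -0.01 (adjusted p = 0.92, limma-trend), 0.16 after median scaling and -0.11 without M0 replicate 2, where it passed (adjusted p = 0.0097). Pgd, the second NADPH-forming enzyme, had 415, 407 and 421 TPM in M0 and 344, 335 and 337 TPM in M2. It fell with no overlap (log2 fold change -0.29, SE 0.04, adjusted p = 5.0e-05, limma-trend), and less after median scaling (-0.12, adjusted p = 0.035).

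The non-oxidative arm held changes in both directions. Rpia, the isomerase that forms ribose 5-phosphate, the precursor of nucleotides, had 11.9, 12.1 and 12.1 TPM in M0 and 14.6, 14.8 and 14.2 TPM in M2. It rose with no overlap (log2 fold change 0.25, SE 0.06, adjusted p = 0.0027, limma-trend). Rpe, the epimerase acting on the same substrate, fell from 23.4 ± 0.981 to 17.6 ± 1.23 TPM (SD, n = 3 each; log2 fold change -0.40, adjusted p = 4.1e-04, limma-trend). The 2 enzymes that move carbon units between sugar phosphates also differed. Tkt, transketolase, had 187, 184 and 180 TPM in M0 and 192, 194 and 196 TPM in M2. The groups did not overlap, and its log2 fold change of 0.08 did not pass (adjusted p = 0.084, limma-trend), while 0.25 after median scaling (adjusted p = 5.1e-04) and 0.08 without M0 replicate 2 (adjusted p = 0.029) did. Taldo1, transaldolase, had 712, 680 and 708 TPM in M0 and 542, 528 and 542 TPM in M2 (log2 fold change -0.38, SE 0.03, adjusted p = 6.0e-06, limma-trend).

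The enzymes can be added up along the pathway because TPM is corrected for length. The 6 genes of lower glycolysis, Gapdh to Pkm, summed to 1912 ± 53.1 TPM in M0 and 1396 ± 12.4 TPM in M2 (mean ± SD, n = 3 each), a ratio of 0.730, or 0.820 after median scaling. The 10 genes from hexokinase to triose phosphate isomerase summed to 1838 ± 33.3 and 1594 ± 4.90 TPM, a ratio of 0.867, or 0.9747 after median scaling, where the groups no longer separated (exact permutation p = 0.4). Aldoa, with a mean of 1003 TPM in M0, weighed most in this sum. Of the 10 genes, 5 still fell and 1 rose after median scaling, where 28.7% and 28.6% of all tested genes did. The oxidative arm went from 677 ± 8.46 to 585 ± 6.67 TPM, a ratio of 0.865, or 0.972 after median scaling (exact permutation p = 0.3). The non-oxidative arm had ratios of 0.831 and 0.934, and the lactate genes 0.803 and 0.903. Pgd, with a mean of 414 TPM in M0, weighed most in the oxidative arm, and Taldo1, with 700 TPM, in the non-oxidative arm. All 34 genes together summed to 6073 ± 98.9 TPM in M0 and 4962 ± 12.6 TPM in M2, with ratios of 0.817 and 0.918. Except for those with a given p, each of these sums gave an exact permutation p of 0.1 on both scales.

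The authors' deposited table of the comparison called 18 of the 34 genes lower and 7 higher in M2 at an adjusted p under 0.05. The share of all genes called in the authors' comparison was not computed, so these counts are not set against it. It kept the same transcript as the TPM table for 21 of the genes and another for 13. In the authors' deposited table Slc2a6 had a log2 fold change of 1.70, Slc2a3 of -1.46, Hk1 of -0.91, Pfkfb3 and Pfkfb4 of -0.89 and 0.89, and Aldoa of 0.01 (adjusted p = 0.93). As background, Gapdh, Eno1, Pgk1, Aldoa, Ldha, Pgam1, Tpi1 and Pkm have processed pseudogenes of near-identical sequence in the mouse genome. Their values are uncertain as far as reads were split with such copies.

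Genes next to the pathway were taken from lists of related transporters, isozymes and branch enzymes. Of 37 other genes of glucose handling, 15 reached the filter, and 7 of those rose and 5 fell (7 and 4 after median scaling), or 46.7% and 33.3%, beside the 17.7% and 45.3% of all tested genes. After median scaling 46.7% rose and 26.7% fell, beside 28.6% and 28.7% of all tested genes. The median log2 fold change of these glucose handling genes was 0.08 on the deposited TPM and turned to -0.01 without M0 replicate 2. Galm, the mutarotase that interconverts the ring forms of glucose, went from 12.3 ± 0.438 to 29.6 ± 0.596 TPM (SD, n = 3 each; log2 fold change 1.202, adjusted p = 3.1e-08, limma-trend). Pgam2, the muscle phosphoglycerate mutase, went from 2.51 ± 0.454 to 7.39 ± 0.726 TPM, against the falling and far more abundant Pgam1. Slc37a2, a sugar phosphate exchanger of the endoplasmic reticulum, had 189, 200 and 184 TPM in M0 and 90.2, 92.0 and 94.4 TPM in M2, a 2.08-fold fall (log2 fold change -1.04, adjusted p = 2.1e-08, limma-trend). Its relative Slc37a4, the glucose 6-phosphate transporter, rose from 9.40 ± 0.526 to 15.7 ± 1.09 TPM.

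Of 13 other pentose phosphate genes, 10 were tested, and 3 rose and 4 fell (5 and 3 after median scaling). The 40% that fell lay near the 45.3% of all tested genes, as did the 30% after median scaling near 28.7%, and 30% rose beside 17.7% of all tested genes. After median scaling 50% rose, beside 28.6% of all tested genes. Prps1, which turns ribose 5-phosphate into the activated ribose used for nucleotides, changed more than any of the 34 genes. It had 7.28, 8.00 and 7.47 TPM in M0 and 41.1, 40.6 and 41.5 TPM in M2, a 5.42-fold rise (log2 fold change 2.29, adjusted p = 3.7e-10, limma-trend). Its paralog Prps2 did not pass, and the ratio of Prps1 to Prps2 went from 0.577 ± 0.0688 to 3.63 ± 0.501 (SD, n = 3 each). Shpk, which phosphorylates sedoheptulose and feeds the non-oxidative arm, rose from 1.94 ± 0.1996 to 3.94 ± 0.269 TPM (log2 fold change 0.75, adjusted p = 3.7e-05, limma-trend). Prpsap2, a partner protein of the PRPS enzymes, and Dera, a deoxyribose phosphate aldolase, fell by 0.43 and 0.36 on the log2 scale.

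At the entry of pyruvate into mitochondria, 13 of 15 listed genes were tested, and 3 rose and 4 fell (5 and 1 after median scaling), or 23.1% and 30.8% beside 17.7% and 45.3% of all tested genes. After median scaling 38.5% rose and 7.69% fell, beside 28.6% and 28.7% of all tested genes. The pyruvate dehydrogenase kinases, which inhibit the pyruvate dehydrogenase complex, went different ways. Pdk1 fell from 11.9 ± 1.08 to 7.37 ± 0.0932 TPM (SD, n = 3 each; log2 fold change -0.62, adjusted p = 4.5e-05, limma-trend), and Pdk2 rose from 7.01 ± 0.126 to 11.7 ± 0.931 TPM (log2 fold change 0.66, adjusted p = 2.3e-05, limma-trend). Pdk3 passed with a log2 fold change of 0.22 (adjusted p = 0.044, limma-trend) and lost the call when M0 replicate 1 or 3 (adjusted p = 0.118 or 0.121) or M2 replicate 2 or 3 (adjusted p = 0.168 or 0.103) was left out, and with no filter on low values (adjusted p = 0.0763). Dld, a subunit of the complex, passed with a log2 fold change of -0.22 (adjusted p = 0.029, limma-trend), a call that was lost after median scaling (-0.06), with no filter on low values (adjusted p = 0.0746) or when M2 replicate 1 or 2 was left out (adjusted p = 0.0852 or 0.0878).

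Of 21 genes whose products regulate the pathway, 19 were tested, and 6 rose and 6 fell (10 and 3 after median scaling), or 31.6% each beside 17.7% and 45.3% of all tested genes, with a median log2 fold change of 0.09. After median scaling 52.6% rose and 15.8% fell, beside 28.6% and 28.7% of all tested genes. Txnip and Arrdc4 encode arrestin-family proteins that lower glucose uptake and are known targets of the glucose-sensing MLXIP and MLX pair. Txnip had 209, 217 and 204 TPM in M0 and 418, 415 and 407 TPM in M2, a rise of 0.97 on the log2 scale (adjusted p = 1.0e-08, limma-trend). Arrdc4 had 13.5, 13.8 and 13.5 TPM in M0 and 31.9, 36.8 and 31.5 TPM in M2, a rise of 1.23 on the log2 scale (adjusted p = 1.2e-07, limma-trend). Both rose with no overlap between groups. Mlxip itself rose (log2 fold change 0.59) and its partner Mlx fell (-0.40).

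Myc had 29.8, 27.5 and 27.8 TPM in M0 and 13.2, 13.7 and 12.1 TPM in M2, a 2.19-fold fall (log2 fold change -1.07, adjusted p = 2.3e-07, limma-trend). In the oxygen-sensing system Epas1 (HIF2 alpha) rose from 2.30 ± 0.234 to 4.02 ± 0.106 TPM (SD, n = 3 each; log2 fold change 0.61, adjusted p = 1.1e-04, limma-trend). Vhl, which marks HIF proteins for destruction, rose (log2 fold change 0.52) and Egln1, a prolyl hydroxylase that acts before it, fell (-0.53). Hif1a had 26.8, 31.5 and 26.9 TPM in M0 and 31.6, 31.4 and 30.7 TPM in M2. Its log2 fold change of 0.14 did not pass (adjusted p = 0.10, limma-trend), while 0.30 after median scaling and 0.21 without M0 replicate 2 did (adjusted p = 0.0016 and 0.0012).

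Hif1an, which hydroxylates HIF1 alpha, rose by 0.28 on the log2 scale (adjusted p = 0.011, limma-trend), a call that was lost without M2 replicate 1 (adjusted p = 0.0515). Trp53, Keap1 and Nfe2l2 passed on the deposited TPM with log2 fold changes of -0.25, -0.24 and -0.21 and did not after median scaling. Prkaa1 (0.13), Egln2 (0.09) and Sirt6 (0.09) did not pass on the deposited TPM and passed as higher after median scaling, and Prkaa1 also passed without M0 replicate 2 (adjusted p = 0.0084). Arnt (-0.08), Akt1 (-0.11) and Mtor (-0.14) did not pass and had the opposite sign after median scaling (0.08, 0.06 and 0.02). Akt1 passed as lower without M0 replicate 2 (-0.14, adjusted p = 0.0027). Egln3 and Mlxipl were not tested.

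**Figure D4:**
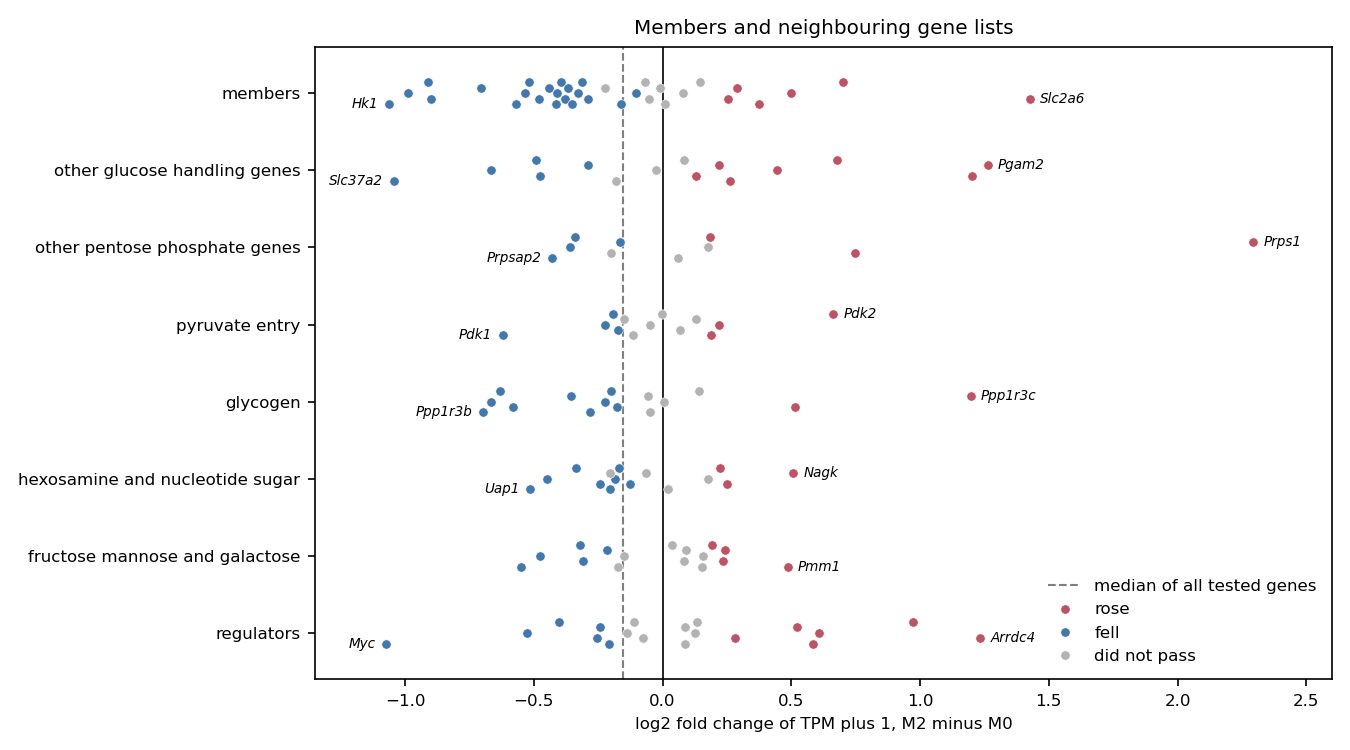
Log2 fold change of TPM plus 1, M2 minus M0 (x axis), of the 34 members and of each tested gene in 7 neighbouring lists (rows), coloured by whether the gene rose, fell or did not pass on the deposited TPM. The dashed line marks the median of all tested genes at -0.15; Prps1 at 2.29 lies farthest to the right, and Myc, Hk1 and Slc37a2 lie farthest to the left, at -1.07, -1.06 and -1.04.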

How the data were processed

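The submitters' processing notes name bcl2fastq, STAR, HOMER 4.11.1, DESeq2 and the mm10 build. Settings are not given in the sources used here. Per the file headers, the authors deposited TPM for 25124 genes with 1 RefSeq transcript kept per gene, and the transcript length in bases that each TPM is divided by. A second table of the authors gives log2-scale values for each library, with the p-value, raw and adjusted, and log2 fold change of M2 against M0. Entries shifted by commas (3) were realigned. Whole reads within 0.1 read were recovered from TPM times length, 16913185 to 19019896 per library, 89.8% to 90.9% of the tags in the file headers. There were 3 libraries per group.

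Limma-trend (limma 3.58.1, R 4.3.3, robust, two-sided, group as the only term) was run on log2 of TPM plus 1 for genes with at least 1 TPM in at least 3 libraries. Benjamini-Hochberg adjustment covered all 11235 genes tested. Median scaling used median-ratio factors of the libraries. Scatter between replicates was a chi-square on recovered reads. Shares and sums were computed per library and tested by exact permutation, with 22 shares in the family (Python 3.11.15, scipy 1.17.1). The members and lists were chosen with earlier results of these data known. Named genes were all 34 members, every tested regulator, and up to 4 genes per list with the largest change past the threshold, of which 1 is not reported here. Exons are those of GENCODE transcripts matched by identifier. Other settings tried were a pseudocount of 0.1 or 5, all genes without a filter, at least 5 TPM in place of 1, voom on recovered reads, the authors' log2 values, a replicate term and each library left out. The test was tried on simulated data.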

Additional observations from a re-analysis of the deposited data

How the results depend on the processing

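Pseudocounts of 0.1 and 5 and no filter left all 34 calls as they were. With median scaling the members that fell were 18, with voom on recovered reads 20 and with the authors' log2-scale values 18, and those that rose were 9, 7 and 10. Leaving out 1 library at a time gave 20 to 23 that fell and 6 to 7 that rose. Shares of all genes were computed only for the deposited TPM, median scaling and the fit without M0 replicate 2. The other counts have no such share beside them. Signs reversed with median scaling and with the authors' log2 values, in that order, for Hk3 (0.099 and 0.0914), Gpi1 (0.0647 and 0.064), Aldoa (0.0069 and 0.0082), G6pdx (0.114 and 0.112), Pgls (0.157 and 0.151), Arnt (0.0825 and 0.0822), Akt1 (0.0582 and 0.0591) and Mtor (0.0169 and 0.0187). Pgls also reversed with voom (0.0427). With M0 replicates left out in turn, Pgls ranged from -0.1051 to 0.0409, above 0 without replicate 1 or 3, and Slc16a1 from -0.0139 to 0.0541, below 0 without replicate 1 or 3. Summed TPM, M2 minus M0, after median scaling was 23.7 for the glucose transporter genes, -43.7 for upper glycolysis and 10.5 for the PFKFB genes. It was -324 for lower glycolysis, -59.2 for the lactate genes, -18.0 and -57.2 for the oxidative and non-oxidative arms and -468 for all members. Why these values moved was not tested beyond the shift of all genes that the scaling removes. A replicate block (replicate number as a term) gave 21 that fell and 6 that rose, losing Gpi1 (adjusted p = 0.0746) and gaining Pfkm. Same-numbered libraries had correlations of 0.005, -0.005 and -0.043 in their deviations from the group means, so the numbers were not taken as pairs. The fewest reads lay behind Slc2a3, Eno2 and Ldhb, with at least 40, 79 and 85 per library.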

Other observations

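Of 18 listed glycogen genes, 15 were tested, and 9 fell and 2 rose, or 60.0% and 13.3% beside 45.3% and 17.7% of all tested genes. After median scaling 5 fell and 3 rose, or 33.3% and 20.0% beside 28.7% and 28.6%. Their median log2 fold change on the deposited TPM was -0.20, against -0.15 over all tested genes. Gbe1, the branching enzyme, fell from 13.4 ± 1.04 to 8.08 ± 0.365 TPM (SD, n = 3 each), and Ugp2, which makes the UDP-glucose that glycogen is built from, from 50.1 ± 5.44 to 31.9 ± 0.523 TPM. The phosphatase subunits that bring protein phosphatase to glycogen differed: Ppp1r3b fell from 10.4 ± 0.854 to 6.02 ± 0.238 TPM. Ppp1r3c was listed at 0.0490, 0 and 0 TPM in M0 and 1.33, 1.22 and 1.44 TPM in M2, or 2 against 164 recovered reads, and passed the filter on low values only through M2. It therefore had to be higher in M2, yet it is counted among the rises above, before and after median scaling.

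In the hexosamine and nucleotide sugar branch, 15 of 16 genes were tested, and 8 fell and 3 rose (3 and 5 after median scaling). The shares on the deposited TPM, 53.3% and 20.0%, lay near the 45.3% and 17.7% of all tested genes. After median scaling 20.0% fell and 33.3% rose, beside 28.7% and 28.6% of all tested genes. Uap1, which makes UDP-N-acetylglucosamine, had a log2 fold change of -0.51, Cmas, which activates sialic acid, of -0.45, and Pgm3, a mutase of the same branch, of -0.34. Nagk, the kinase that salvages N-acetylglucosamine, rose from 63.6 ± 1.49 to 90.8 ± 0.723 TPM (SD, n = 3 each). Of 17 genes of fructose, mannose and galactose use, 16 were tested, and 5 fell and 4 rose (3 and 9 after median scaling), or 31.25% and 25% beside 45.3% and 17.7% of all tested genes. After median scaling 18.75% fell and 56.25% rose, beside 28.7% and 28.6% of all tested genes. Gmds, the dehydratase that starts GDP-fucose synthesis, had a log2 fold change of -0.48, and Pmm1, a phosphomannomutase, of 0.49. Gmppb, which makes GDP-mannose, had -0.32 and did not pass after median scaling (-0.16). Of 10 listed gene copies of pathway enzymes, 4 were in the table and 0 reached the filter.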
